A study of Mus musculus with 16 samples.

Results

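The 9 genes described here encode splicing kinases and RNA-binding proteins and were grouped as candidates for regulation of their own RNA: Clk1, Clk2, Clk4, Cirbp, Rbm3, Rbm39, Snrpb, Snrnp70 and Luc7l. They were chosen by name, with earlier results of these data known. Each of their transcripts listed in the count tables was taken with its annotated type. The tables held 142435 transcripts, of which those matched to the annotation came from 55266 genes, and 111 transcripts belonged to the 9 genes. Of these 111, 36 were annotated as protein coding, 21 as targets of nonsense-mediated RNA decay (NMD), 43 as retained intron and 11 as other types. A total of 102 had a count in some library. Bulk RNA of frontal cortex (FC) and cerebellum (Cere) was sequenced from adult mice lacking Upf3b (Upf3b-KO, written Upf3b_KO in the labels) and from their littermate controls (Ctrl). Each tissue and genotype had 4 libraries, numbered 1 to 4. The strain, the sex and the exact age were not given in the sources used here, nor was the design of the null allele, and neither group received a treatment. Both tissues were taken from the same mice, but the labels number the libraries without naming the animal behind each one, so tests between the tissues treat all libraries as independent and the p-values measure the spread between these libraries, which may be technical. The SD of the gene totals below was at or under the counting noise in 13 of 36 combinations of gene and group (median ratio 1.21), so the gene-level errors and p-values may be smaller than the spread between mice would give. Whether any of the proteins acted on its own RNA was not measured.

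NMD degrades mRNAs whose stop codon lies well upstream of an exon-exon junction, and UPF3B is an adaptor between the protein complex left at such junctions and the decay machinery. Many splicing regulators use this for feedback: at high protein level, splicing is steered to a transcript with a premature stop codon, often by inclusion of a so-called poison exon or by skipping of a coding exon, and that transcript is destroyed. Clk kinases phosphorylate the SR splicing factors and are also known for transcripts that keep introns and stay in the nucleus, while Cirbp and Rbm3 are the cold-inducible RNA-binding proteins.

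NMD-type transcripts that skip a coding exon are annotated for all 3 Clk genes, and their new junctions are shown for comparison. Clk1-210 lacked the 91 nt exon 4 of the coding transcript Clk1-201 (chr1:58459280-58459370, minus strand). Clk2-204 lacked the 88 nt exon 4 of Clk2-203 (chr3:89076922-89077009, plus strand). Clk4-204 lacked the 91 nt exon 4 of Clk4-201 (chr11:51163905-51163995, plus strand). All 3 lengths leave a remainder of 1 when divided by 3, so skipping shifts the reading frame. Each line below gives 30 bases of the GRCm39 GENCODE transcript, 5′ to 3′, with the bases of the downstream exon in capitals.
Clk1-210: caccattcacacgggATGAAATTGTTGATA
Clk2-204: agccgctcatcttcaATGAAATTGTAAGCA
Clk4-204: catcagtcgcattcgATGAAATCGTGGACA
The downstream exon opened with the bases ATGAAAT in each of the 3 genes. In Clk1-210 the annotated stop codon lay 18 nt into that exon, at 809 nt before the last exon-exon junction, and in Clk2-204 it lay 9 nt into it, at 818 nt before the last junction. Clk4-204 and Clk4-212 differ from this: besides the skipped exon they hold added exons upstream, and their annotated stop codon (chr11:51162635-51162637) comes before the skip. The third NMD-type transcript of the gene, Clk4-214, replaces exon 1, holds added exons and ends before exon 4, and it alone of the 21 has no junction 50 nt or more after its stop codon.

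The other 6 genes carry added exons in place of the skip, and the stop codons that define their NMD-type transcripts are shown because the results below turn on them. Rbm39-223 holds an added 72 nt exon (chr2:156016017-156016088, minus strand), and Rbm39-225 an added 73 nt exon (chr2:156020800-156020872). Snrpb-202 holds an added 124 nt exon (chr2:130018549-130018672, minus strand), Luc7l-206 one of 71 nt (chr17:26472948-26473018, plus strand) and Snrnp70-204 one of 60 nt (chr7:45032549-45032608, minus strand). Rbm3-207 and Rbm3-208 hold an added 271 nt exon (chrX:8010414-8010684, minus strand). Cirbp-201 exchanges the last exon of Cirbp-202 for a pair of others (chr10:80008248-80008346 and chr10:80008471-80008620, plus strand). The stop codon is in capitals, with the 12 bases before and the 15 bases after it in the spliced transcript.
Rbm39-223: tccatctccttgTGAttggagtgtgggttt
Rbm39-225: aactgtcaatcaTAAggatgagaacaagtt
Snrpb-202: tttgtaaagctgTAGcctacagggctctcc
Luc7l-206: cgcgcatggattTAGgagaatgtaccaaaa
Snrnp70-204: ctggcttgcagcTGAtgcttacgctcccct
Rbm3-207: actggtcctgcaTGAggcggagaagccacc
Cirbp-201: gacagttatggaTGAaggggagccaacctg
In all of these but Luc7l-206 the stop codon lay inside the added exon. In Luc7l-206 the added exon shifts the frame (71 nt leaves a remainder of 2) and the stop codon lay 10 nt into exon 4. The distance from the stop codon to the last junction was 1420 nt in Rbm39-223, 1442 nt in Rbm39-225, 596 nt in Snrpb-202, 637 nt in Luc7l-206, 488 nt in Rbm3-207, 224 nt in Snrnp70-204 and 94 nt in Cirbp-201. Of the 21 NMD-type transcripts, 20 had a junction at least 50 nt downstream of the stop codon (dEJ), at distances of 51 to 1442 nt, 18 held an added exon and 7 skipped an exon of the main coding transcript.

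**Figure D1:**
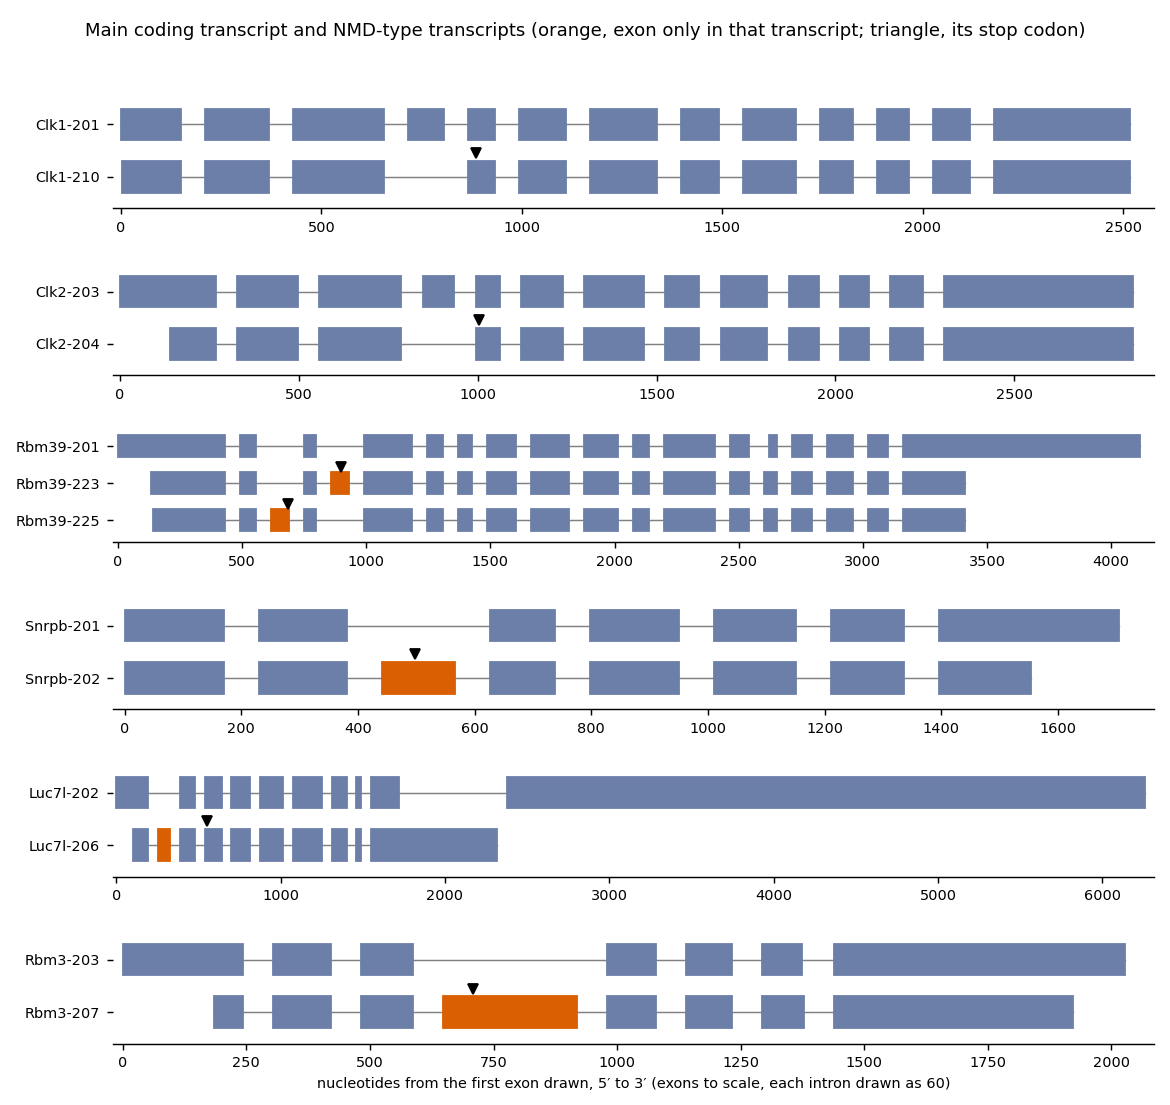
Exons of the main coding transcript and of the NMD-type transcripts of 6 genes, drawn 5′ to 3′ in nucleotides from the first exon drawn, with exons to scale and introns shortened. Orange marks an exon that the coding transcript lacks and a triangle marks the stop codon of the NMD-type transcript: in Clk1-210 and Clk2-204 it follows the missing exon 4, and in Rbm39-223, Rbm39-225, Snrpb-202 and Rbm3-207 it lies in the added exon.

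The 15 deep libraries held 27660078 to 35238677 counts each. Cerebellum Upf3b-KO replicate 1 held 64981, at which 3 counts are worth 46.2 CPM (counts per 1000000 counts of the library), and it was left out, so cerebellum values rest on 4 Ctrl and 3 Upf3b-KO libraries. Upf3b itself was at 14.2 to 15.7 CPM in frontal cortex Ctrl and 0.229 to 0.857 CPM in Upf3b-KO, and at 20.9 to 23.6 against 0.617 to 0.965 CPM in cerebellum. Cell type markers moved with genotype in both tissues. All 7 choroid plexus markers rose in each tissue, with a summed level of 20.8 to 22.1 CPM in frontal cortex Ctrl against 2170 to 2220 in Upf3b-KO, and of 31.3 to 35.6 against 1380 to 1400 CPM in cerebellum. In frontal cortex all 7 markers of striatal neurons rose (145 to 157 against 746 to 759 CPM summed), as did all 7 of male germ cells (69.6 to 71.4 against 221 to 228 CPM) and all 5 of oligodendrocytes (7120 to 7180 against 9690 to 9760 CPM), and 5 of 6 markers of cortical excitatory neurons fell (1690 to 1750 against 1580 to 1590 CPM). In cerebellum all 6 granule cell markers fell (3710 to 3730 against 1920 to 1940 CPM), all 4 Purkinje cell markers fell (6630 to 6770 against 2450 to 2470 CPM) and all 5 oligodendrocyte markers rose (5720 to 5810 against 13700 to 13800 CPM). Genotype and cell makeup therefore cannot be told apart in the levels below: in bulk tissue, fewer cells of a type and less RNA per cell look the same.

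NMD-type RNA took a larger share of most of these genes in Upf3b-KO. The 9 genes were chosen with earlier results of these data known. Comparisons with all genes, classes or transcripts, here and below, therefore describe the list and do not test it. In frontal cortex, the share of the gene held by NMD-type transcripts was higher in every Upf3b-KO library than in every Ctrl library for 7 of 9 genes, all but Clk2 and Snrnp70, against 11.1% of the 1997 genes with a tested NMD class. In cerebellum it was so for 7 of 9 genes, all but Clk1 and Snrnp70, against 15.5% of 2168. A share depends on the rest of the gene too. The CPM of the NMD class overlapped between genotypes for Clk2 and Rbm3 in cerebellum and for Cirbp in frontal cortex. For Clk2 in cerebellum the gap in share was narrow, from 16.1% in the highest Ctrl library to 16.3% in the lowest of Upf3b-KO. A test of each class against the rest of its gene (edgeR diffSpliceDGE, Benjamini-Hochberg adjusted over all classes) called 3 of the 9 in frontal cortex, Clk1, Rbm39 and Luc7l, against 3.86% of all NMD classes tested. In cerebellum it called 1, Rbm39, against 3.18%. The test had little power on simulated counts: it found 9.52% of the classes changed 2-fold in frontal cortex and 3.08% in cerebellum, and 15% and 14.3% of its calls were false. The simulated classes were drawn from all types, so the power for NMD classes alone is not known.

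**Figure D2:**
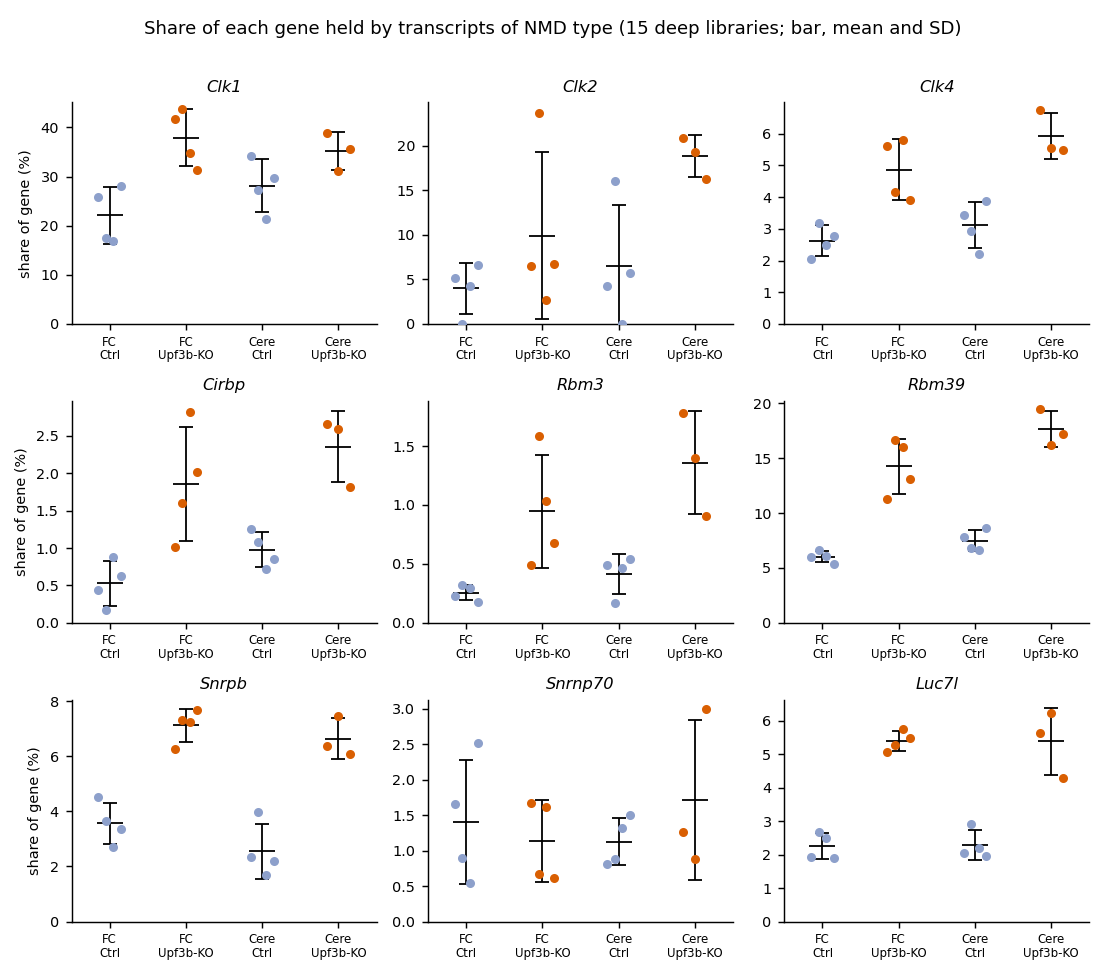
Share of each gene's counts held by NMD-type transcripts, in percent, with a point per library of the 15 deep libraries and bars for mean and SD. In Rbm39, Luc7l, Snrpb, Clk4, Cirbp and Rbm3 the Upf3b-KO points (orange) lie above the Ctrl points (blue) in both tissues, while those of Snrnp70 overlap.

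Among single transcripts (edgeR quasi-likelihood test, adjusted p under 0.05 over all transcripts), 57 of the 111 had enough counts for a test in frontal cortex, and 8 rose and 5 fell, against 8.63% and 7.63% of all transcripts tested. In cerebellum 64 passed, and 4 rose and 9 fell, against 12.3% and 10.2%. Of the NMD-type transcripts, 5 of 13 tested rose in frontal cortex (background 8.78%) and 3 of 16 in cerebellum (9.43%), and none of them fell in either tissue. Their median log2 fold change was 1.35 and 0.87, against 0.28 and 0.24 over all NMD-type transcripts. At the study's cutoffs, an adjusted p under 0.01 and a fold over 2, 2 transcripts passed in frontal cortex (3.16% of all), Rbm39-223 and Luc7l-206. In cerebellum 6 passed (4.65% of all): Rbm39-223, Rbm39-225 and Luc7l-206 were higher, and the coding transcripts Rbm3-202, Rbm3-203 and Rbm3-206 lower. Counts summed per gene and class were also fitted as features, a fit chosen after the data had been seen. In it, the NMD class rose in 7 of 9 genes in frontal cortex (16.8% of all NMD classes) and in 4 of 9 in cerebellum (18.2%). Cirbp in frontal cortex and Snrpb in cerebellum, whose class is 1 transcript, were called in this fit but not among transcripts.

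Rbm39 encodes a splicing factor related to U2AF that is known for its degradation by aryl sulfonamide drugs. Of the 9 genes it had the lowest adjusted p for usage of the NMD class in both tissues. The gene lies at chr2:155988271-156022305 and had 25 listed transcripts, 8 of them NMD type. Its NMD-type level in frontal cortex was 8.62, 9.64, 8.87 and 7.59 CPM in Ctrl and 18.1, 27.5, 26.4 and 21.3 CPM in Upf3b-KO. In cerebellum it was 16.2, 14.6, 14 and 17.9 CPM in Ctrl and 37.4, 32.7 and 34.2 CPM in Upf3b-KO. The Upf3b-KO libraries stood above the Ctrl libraries in each tissue without overlap. The share of the gene went from 5.37 to 6.63% in frontal cortex Ctrl to 11.3 to 16.6% in Upf3b-KO, and from 6.60 to 8.67% in cerebellum Ctrl to 16.2 to 19.5%. The class rose in usage in both tissues (adjusted p = 7.0e-08 and 6.9e-08, diffSpliceDGE), and leaving out any one library changed neither call.

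Rbm39-223 and Rbm39-225, which span most of the coding transcript, both contributed. Rbm39-223 was at 2.28, 4.29, 2.70 and 3.54 CPM in frontal cortex Ctrl and at 8.06, 9.35, 8.05 and 8.62 CPM in Upf3b-KO (log2 fold change 1.35, SE 0.20, edgeR adjusted p = 0.0028). In cerebellum it was at 3.47, 2.73, 4.08 and 5.74 CPM in Ctrl and 16.7, 8.65 and 15.97 CPM in Upf3b-KO (log2 fold change 1.78, SE 0.32, edgeR adjusted p = 0.0077). The groups did not overlap in either tissue, and Upf3b-KO replicate 3 was the lowest of its group in cerebellum. With the replicate number as a block in the fit, the cerebellum call of Rbm39-223 was lost (log2 fold change 1.71, adjusted p = 0.078, edgeR). Rbm39-225 went from 2.47 to 4.52 CPM in frontal cortex Ctrl to 6.52 to 15.96 CPM in Upf3b-KO, and from 6.48 to 11.3 CPM in cerebellum Ctrl to 14.96 to 18.3 CPM. Its change on the log2 scale was 1.49 (SE 0.30) in frontal cortex and 1.01 (SE 0.19) in cerebellum. The other 6 NMD-type transcripts of the gene did not pass the test or the filter in either tissue.

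The remaining RNA of Rbm39 differed between the tissues. The coding class was at 121 to 125 CPM in frontal cortex Ctrl and 128 to 132 CPM in Upf3b-KO (log2 fold change 0.0056 after scaling, not called in the fit of class sums). In cerebellum it fell, from 175 to 186 CPM to 147 to 159 CPM (log2 fold change -0.26, SE 0.034, edgeR adjusted p = 0.00015), and its usage in the gene fell as well (adjusted p = 0.033, diffSpliceDGE). The retained intron class fell in both in the same fit, by 0.35 on the log2 scale in frontal cortex, where the libraries overlapped at one end (11.2 to 12.8 against 9.26 to 11.3 CPM), and by 0.54 in cerebellum (11.5 to 13.9 against 7.90 to 10.1 CPM). Its main transcript Rbm39-205, of 1008 nt at the 5′ end of the gene, was at 8.32, 8.45, 8.48 and 8.99 CPM in frontal cortex Ctrl and 7.44, 5.93, 6.42 and 5.45 CPM in Upf3b-KO (adjusted p = 0.022, edgeR), and fell in cerebellum too (log2 fold change -0.48, adjusted p = 0.025, edgeR). Those calls were lost on leaving out any one of 6 of the 8 frontal cortex libraries (Ctrl 2, 3 or 4, Upf3b-KO 2, 3 or 4) or of 5 of the 7 cerebellum libraries (Ctrl 1, 2 or 4, Upf3b-KO 2 or 4), with adjusted p of 0.050 to 0.079. A shorter coding transcript, Rbm39-217, was the only member transcript whose usage was called in cerebellum (1.09% of all transcripts). It was at 0, 0, 2.27 and 0 CPM in Ctrl and 4.88, 13.2 and 3.28 CPM in Upf3b-KO. In frontal cortex it was at 0 in all Ctrl libraries and at 0, 5.80, 9.21 and 7.96 CPM in Upf3b-KO.

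Luc7l, at chr17:26471870-26504486, encodes a protein of the U1 snRNP that takes part in the choice of 5′ splice sites. Its only NMD-type transcript, Luc7l-206, was at 1.75, 2.44, 2.33 and 1.79 CPM in frontal cortex Ctrl and 5.94, 6.14, 6.35 and 6.05 CPM in Upf3b-KO. In cerebellum it was at 2.19, 3.26, 2.39 and 2.11 CPM in Ctrl and 6.60, 7.49 and 5.29 CPM in Upf3b-KO. The Upf3b-KO libraries of frontal cortex lay within a narrow band well above Ctrl, and those of cerebellum were also above every Ctrl library. The log2 fold change was 1.5 (SE 0.16, adjusted p = 0.00046, edgeR) and 1.37 (SE 0.22, adjusted p = 0.0042), and no left-out library ended either call. The share of the gene rose from 1.90 to 2.67% to 5.08 to 5.76% in frontal cortex (adjusted p = 0.042, diffSpliceDGE). That usage call was lost on leaving out any library but Ctrl replicate 2, with adjusted p of 0.054 to 0.14. The coding transcript Luc7l-202 also rose, from 80.9 to 84.8 CPM up to 94.9 to 103 CPM in frontal cortex and, in cerebellum, from 94.9 to 97.7 CPM up to 102 to 107 CPM. Its log2 fold change was 0.20 (SE 0.034) and 0.12 (SE 0.025), and the cerebellum call was lost without Upf3b-KO replicate 3 or 4 (adjusted p = 0.059 and 0.062, edgeR). That call was also lost without a count filter (adjusted p = 0.0614, edgeR), with a replicate block (0.136) and with the shallow library kept (0.265).

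Snrpb, at chr2:130013547-130021323, encodes the core proteins SmB and SmB′ of the spliceosomal snRNPs. Snrpb-202, its NMD-type transcript, was at 2.87, 2.39, 1.80 and 2.26 CPM in frontal cortex Ctrl and 4.25, 4.95, 4.55 and 5.17 CPM in Upf3b-KO. In cerebellum it was at 2.19, 3.56, 1.43 and 1.92 CPM in Ctrl and 4.51, 4.98 and 4.16 CPM in Upf3b-KO. Neither tissue showed overlap between the groups, and cerebellum Ctrl replicate 2 stood closest to Upf3b-KO. The log2 fold changes were nearly equal, 0.958 (SE 0.18) and 0.998 (SE 0.32), and frontal cortex passed the test where cerebellum did not (adjusted p = 0.0087 against 0.067, edgeR). The cerebellum value depended on the setting: it was 0.013 without Ctrl replicate 2, 0.015 in a fit over the 15 deep libraries and 0.016 with DESeq2, and the class sum, the same counts, was called (0.017). The coding transcript Snrpb-201 was at 60.1 to 64.3 CPM in frontal cortex Ctrl and 57.4 to 62.7 CPM in Upf3b-KO, which overlapped. In cerebellum it fell, from 91.5, 86.0, 83.1 and 85.4 CPM to 66.2, 61.5 and 63.8 CPM (log2 fold change -0.44, SE 0.042, adjusted p = 0.00033, edgeR).

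**Figure D3:**
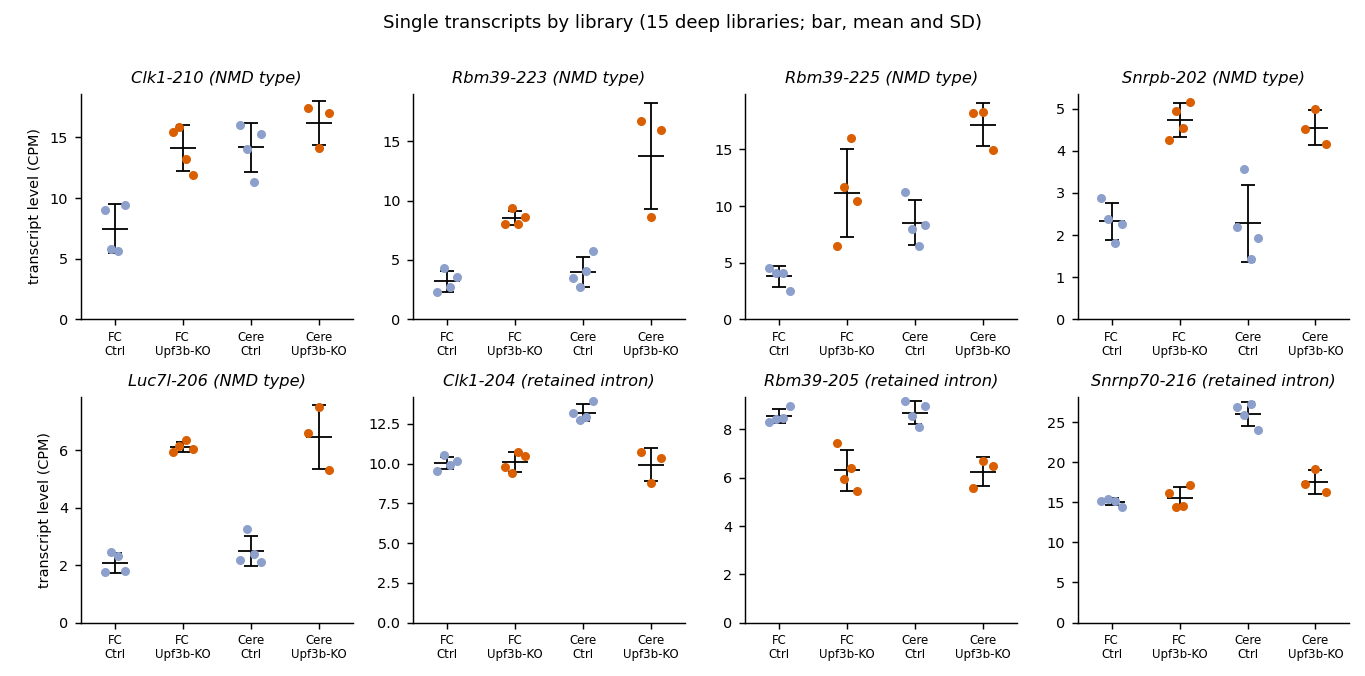
Levels in CPM of 8 single transcripts by library, with a point per library of the 15 deep libraries and bars for mean and SD. The NMD-type transcripts Rbm39-223, Rbm39-225, Snrpb-202 and Luc7l-206 lie higher in Upf3b-KO (orange) than in Ctrl (blue) in both tissues, Clk1-210 does so in frontal cortex alone, and Snrnp70-216 lies lower in cerebellum Upf3b-KO.

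Snrnp70, at chr7:45024930-45045169, encodes the U1-70K protein of the U1 snRNP, and its NMD-type RNA was scarce. That class was at 0.853, 0.450, 0.254 and 1.22 CPM in frontal cortex Ctrl and 0.825, 0.313, 0.797 and 0.310 CPM in Upf3b-KO, and at 0.494 to 0.921 against 0.455 to 1.57 CPM in cerebellum. The groups overlapped in both tissues, and the log2 fold changes of the class (-0.36, SE 0.53, and 0.38, SE 0.47) were smaller than their errors. The retained intron transcript Snrnp70-216, which spans the gene, moved instead. It was at 26.9, 25.9, 27.3 and 24.0 CPM in cerebellum Ctrl and 17.3, 19.2 and 16.2 CPM in Upf3b-KO, without overlap (log2 fold change -0.57, SE 0.080, adjusted p = 0.0022, edgeR). In frontal cortex it was at 14.4 to 15.5 against 14.4 to 17.2 CPM. The coding class overlapped between the genotypes in cerebellum (25.1 to 29.99 against 27.1 to 28.8 CPM), and so did NMD-type RNA. The gene as a whole fell there, from 59.5 to 62.5 CPM to 51.9 to 54.1 CPM (log2 fold change -0.26, SE 0.037, adjusted p = 3.6e-08, edgeR), and no change was called once retained intron transcripts were taken out (log2 fold change -0.018, adjusted p = 0.80, edgeR).

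Of the kinases, Clk1 (chr1:58449348-58463234) had the largest NMD-type share. Its exon 4 skipping transcript Clk1-210 was at 9.02, 5.79, 5.64 and 9.39 CPM in frontal cortex Ctrl and 15.5, 15.9, 13.2 and 11.9 CPM in Upf3b-KO (log2 fold change 0.86, SE 0.20, adjusted p = 0.024, edgeR). In cerebellum it was at 15.99, 14.1, 11.4 and 15.2 CPM in Ctrl and 17.4, 14.1 and 16.98 CPM in Upf3b-KO (log2 fold change 0.19, SE 0.14, adjusted p = 0.42, edgeR). The genotypes were apart in frontal cortex and overlapped in cerebellum, where Ctrl was already near the Upf3b-KO level of frontal cortex. The difference between the tissues was not called (adjusted p = 0.14, edgeR interaction). NMD-type RNA made up 16.9 to 28.2% of the gene in frontal cortex Ctrl and 31.3 to 43.7% in Upf3b-KO (usage adjusted p = 0.020, diffSpliceDGE). The transcript call was lost on leaving out Ctrl replicate 2 or 3 or Upf3b-KO replicate 1, 2 or 3 (adjusted p of 0.053 to 0.070), and the usage call on leaving out Ctrl replicate 2 or 3 or Upf3b-KO replicate 1 or 2 (0.080 to 0.11).

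Retained intron RNA of Clk1 was lower in Upf3b-KO. That class was at 16.3, 15.6, 14.4 and 14.7 CPM in frontal cortex Ctrl and 11.8, 12.9, 14.1 and 14.01 CPM in Upf3b-KO, and at 17.6 to 20.6 against 14.96 to 16.3 CPM in cerebellum. The genotypes did not overlap, with a narrow gap in frontal cortex, and the class fell in both tissues in the fit of class sums (log2 fold change -0.28, SE 0.077, and -0.33, SE 0.071). Clk1-204, which holds the 5′ part of the gene, fell in cerebellum from 12.7 to 13.9 CPM to 8.76 to 10.7 CPM (adjusted p = 0.024, edgeR). That call was lost without Ctrl replicate 1 or 4 or Upf3b-KO replicate 3 or 4 (0.051 to 0.064). Among all retained intron transcripts of the 9 genes, 1 of 19 tested fell in frontal cortex (2.73% of all such transcripts) and 3 of 23 in cerebellum (6.28%). Their median log2 fold change was -0.036 and -0.13, against -0.085 and -0.27 over all retained intron transcripts. No retained intron class of the 8 tested was called in usage by diffSpliceDGE in either tissue, against 0.926% of all such classes in frontal cortex and 1.01% in cerebellum, while 2 and 4 of them had an unadjusted p under 0.05. All of those were lower in usage but Rbm3 in cerebellum, which was higher (usage log2 0.80). The coding transcript Clk1-201 overlapped between genotypes in each tissue. Other nuclear-retained RNAs (Malat1, Neat1, Meg3, Miat and Snhg11) summed to 808 to 823 CPM in frontal cortex Ctrl against 779 to 802 CPM in Upf3b-KO and to 886 to 908 against 762 to 769 CPM in cerebellum. In frontal cortex 1 of the 5 was higher (Neat1) and 2 were lower (Malat1 and Meg3), and in cerebellum 3 were higher and 2 lower. Immediate early genes, which follow neuronal activity, were higher in 5 of 6 cases in each tissue (129 to 137 against 287 to 299 CPM summed in frontal cortex). Of all genes tested, 28.2% were higher and 25.6% lower in frontal cortex, and 33.4% and 31.6% in cerebellum. The part of either list in the fall of retained intron RNA was not tested.

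Clk4 (chr11:51152552-51174060) was the kinase whose total rose in both tissues. The gene was at 34.7, 31.3, 33.5 and 32.7 CPM in frontal cortex Ctrl and 45.4, 45.6, 45.1 and 43.3 CPM in Upf3b-KO, and at 41.2, 43.3, 44.7 and 43.7 CPM in cerebellum Ctrl against 55.6, 60.4 and 56.8 CPM. No Upf3b-KO library reached down to the Ctrl range. The log2 fold change was 0.36 (SE 0.042) and 0.37 (SE 0.041), and the interaction was near 0 (-0.0080, adjusted p = 0.93, edgeR). Its NMD-type RNA went from 0.706, 0.997, 0.838 and 0.912 CPM to 2.55, 1.90, 2.61 and 1.69 CPM in frontal cortex, while cerebellum had 0.981 to 1.69 CPM in Ctrl and 3.12 to 3.75 CPM in Upf3b-KO. This class rose in both tissues in the fit of class sums (log2 fold change 1.27, SE 0.24, and 1.32, SE 0.22), while none of its 3 transcripts passed alone. The coding class rose from 21.0 to 24.0 CPM to 31.5 to 32.8 CPM and from 28.5 to 30.7 CPM to 38.2 to 45.9 CPM. Within it, Clk4-203 rose in frontal cortex (log2 fold change 1.12, SE 0.22, adjusted p = 0.011, edgeR), and the retained intron class was at 9.32 to 10.2 against 9.80 to 10.9 CPM there.

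Clk2 (chr3:89072098-89084228) was the lowest of the 9 genes, and its NMD-type transcript Clk2-204 varied widely. It was at 0.851, 0, 0.739 and 1.19 CPM in frontal cortex Ctrl and 1.29, 4.42, 0.524 and 1.41 CPM in Upf3b-KO, and at 0.959, 3.48, 0 and 1.27 CPM in cerebellum Ctrl against 4.49, 4.06 and 3.32 CPM. Upf3b-KO replicate 2 stood apart in frontal cortex, and in cerebellum 1 Ctrl library lay within the Upf3b-KO range, so that the estimated folds had errors near their own size (log2 1.41, SE 1.1, and 1.47, SE 1.1). A pair of coding transcripts that differ at the 5′ end were estimated apart in frontal cortex. Clk2-201 rose from 0.899 to 1.73 CPM to 3.06 to 6.22 CPM (log2 fold change 1.55, SE 0.31, adjusted p = 0.011, edgeR), and Clk2-202 was at 3.59 to 6.05 CPM in Ctrl and at 0, 0.737, 0.681 and 0 CPM in Upf3b-KO, a level difference that was not called (adjusted p = 0.078, edgeR). The latter was the only member transcript whose usage was called in frontal cortex (0.734% of all transcripts, adjusted p = 0.0073, diffSpliceDGE). How many reads these transcripts share was not measured. The sum of all coding transcripts of Clk2 overlapped between genotypes (13.4 to 14.9 against 11.9 to 17.4 CPM).

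Cirbp and Rbm3, the cold-inducible pair, fell in both tissues, and their NMD-type RNA stayed a small part of them. Cirbp (chr10:79997069-80008626) was at 100.4, 100.2, 100.1 and 99.7 CPM in frontal cortex Ctrl and 78.9, 82.8, 81.6 and 78.0 CPM in Upf3b-KO, and at 134, 136, 135 and 134 CPM in cerebellum Ctrl against 94.2, 93.1 and 94.1 CPM. Rbm3 (chrX:8004213-8012119) was at 127, 122, 119 and 133 CPM in frontal cortex Ctrl and 89.9, 94.9, 85.9 and 88.8 CPM in Upf3b-KO, and at 233, 237, 232 and 234 CPM in cerebellum Ctrl against 115, 108 and 116 CPM. The genotypes were far apart in each case. The log2 fold change of Cirbp was -0.39 (SE 0.028) and -0.57 (SE 0.026), and that of Rbm3 -0.56 (SE 0.033) and -1.10 (SE 0.024). Rbm3 in cerebellum was the only member gene past the study's cutoffs (13.4% of all genes in cerebellum, 10.3% in frontal cortex, where no member passed). The heat shock list, given beside this because both genes respond to temperature, had 5 of 6 genes higher in cerebellum (2850 to 2880 against 3620 to 3660 CPM summed) and 2 higher and 1 lower in frontal cortex, against 33.4% of all genes higher in cerebellum and 28.2% in frontal cortex. Its part in the result was not tested. All 5 astrocyte markers fell in frontal cortex, with sums of 2840 to 2880 against 2260 to 2280 CPM. In cerebellum 4 of them fell and Gfap rose (mean 167 against 230 CPM), and the lower sum there (4170 to 4220 against 2730 to 2750 CPM) came mostly from Slc1a3 (mean 2760 against 1300 CPM). Their part was not tested either.

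Coding transcripts accounted for the fall of both genes. Cirbp-202 fell in frontal cortex, with Ctrl at 98.0 to 98.6 CPM and Upf3b-KO at 75.1 to 80.5 CPM, and in cerebellum, with 130 to 132 CPM against 88.1 to 90.8 CPM. Of the 6 coding transcripts of Rbm3, 3 fell in frontal cortex and 4 in cerebellum, Rbm3-203 for example from 71.9 to 75.1 CPM to 28.0 to 36.2 CPM in cerebellum (log2 fold change -1.18, SE 0.085, adjusted p = 9.5e-05, edgeR). In frontal cortex its call was lost without Ctrl replicate 3 or 4 or Upf3b-KO replicate 1 (adjusted p of 0.051 to 0.056). NMD-type RNA went the other way. Cirbp-201 was at 0.435, 0.169, 0.883 and 0.622 CPM in frontal cortex Ctrl and 0.795, 1.32, 2.30 and 1.57 CPM in Upf3b-KO, and at 0.972 to 1.68 against 1.71 to 2.51 CPM in cerebellum, so that the groups touched in frontal cortex alone. The NMD class of Rbm3 was at 0.238 to 0.390 against 0.441 to 1.504 CPM in frontal cortex, and at 0.398 to 1.27 against 1.05 to 2.05 CPM in cerebellum, where they overlapped. Among the edgeR fits, both classes were called higher only in that of class sums, in frontal cortex (log2 fold change 1.44, SE 0.47, and 1.33, SE 0.44). Cirbp-201 makes up its class, and the same counts were not called among transcripts (adjusted p = 0.12, edgeR). Usage in frontal cortex was called for neither (adjusted p = 0.14 for Cirbp and 0.25 for Rbm3, diffSpliceDGE). The alternative usage test, limma's diffSplice, called Cirbp in frontal cortex (adjusted p = 0.014). In cerebellum limma's diffSplice called Cirbp (adjusted p = 0.0011) and Rbm3 (0.0027). Neither class sum passed in cerebellum (0.72, SE 0.27, adjusted p = 0.053, and 0.64, SE 0.40, adjusted p = 0.24, edgeR). The share of the gene remained at or under 2.82% for Cirbp and 1.78% for Rbm3 in every deep library.

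**Figure D4:**
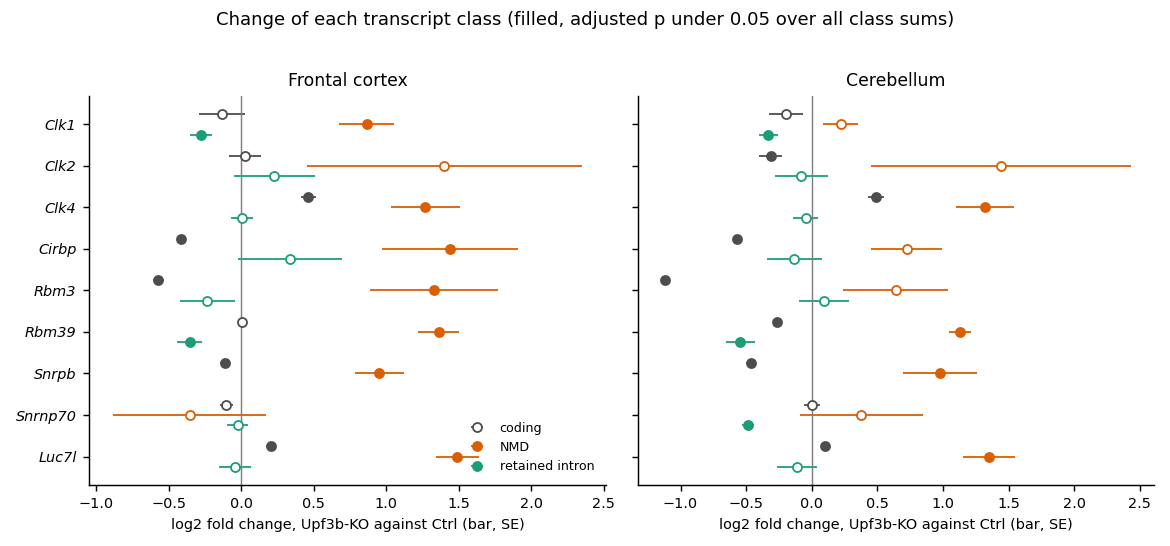
Log2 fold change of the summed coding, NMD-type and retained intron transcripts of each gene, Upf3b-KO against Ctrl, with bars for the SE and filled points for an adjusted p under 0.05 in the fit of class sums. NMD classes lie right of 0 in 8 of 9 genes in frontal cortex and in 9 of 9 in cerebellum, while the coding classes of Cirbp and Rbm3 lie left of 0 in both.

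At the level of gene totals, 3 of 9 genes rose in frontal cortex (Clk4, Rbm39 and Luc7l) and 2 fell (Cirbp and Rbm3), against 28.2% and 25.6% of all genes tested. In cerebellum 2 rose (Clk4 and Luc7l) and 6 fell (Clk1, Cirbp, Rbm3, Rbm39, Snrpb and Snrnp70), against 33.4% and 31.6%. In frontal cortex Clk2 (adjusted p = 0.052, edgeR) and Snrnp70 (0.059) lay near the threshold. A fit over the 15 deep libraries called Clk2 higher there (adjusted p = 0.0495, edgeR) and Snrnp70 lower (0.0431), and some other settings called one or the other. With library totals alone as the scale, a setting tried after the data had been seen, Clk1 and Clk2 were also called higher in frontal cortex, Snrpb changed sign there without a call, and the call of Clk1 in cerebellum was lost. Of all genes called in frontal cortex, 52.4% were higher with the default scaling and 68.5% with library totals alone. Rbm39 is the gene called in opposite directions in the tissues: it was at 144, 146, 145 and 141 CPM in frontal cortex Ctrl and 160, 166, 165 and 162 CPM in Upf3b-KO (log2 fold change 0.10, SE 0.022), and at 208, 214, 212 and 207 CPM in cerebellum Ctrl against 192, 202 and 199 CPM (log2 fold change -0.14, SE 0.022). Clk1 was at 33.0 to 34.9 CPM against 37.0 to 38.0 CPM in frontal cortex (log2 fold change 0.085, adjusted p = 0.084, edgeR) and at 50.1 to 53.1 CPM against 47.4 to 50 CPM in cerebellum (log2 fold change -0.13, adjusted p = 0.0030, edgeR). Without retained intron transcripts the values of Clk1 were 0.33 (adjusted p = 3.3e-06, edgeR) and -0.017 (adjusted p = 0.77).

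**Figure D5:**
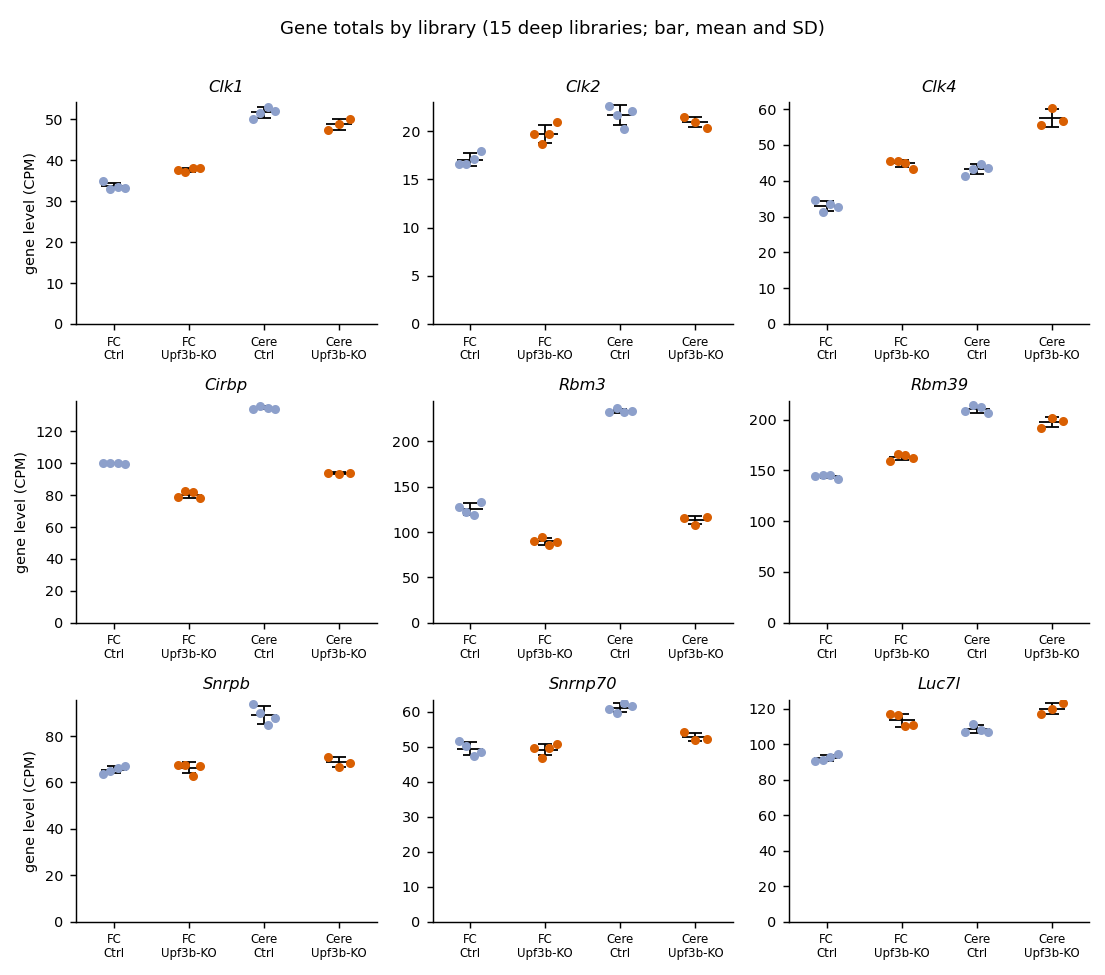
Gene totals in CPM by library, with a point per library of the 15 deep libraries, bars for mean and SD and axes from 0. Cirbp and Rbm3 lie lower and Clk4 and Luc7l higher in Upf3b-KO (orange) than in Ctrl (blue) in both tissues, and each gene lies higher in cerebellum Ctrl than in frontal cortex Ctrl.

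The change from Ctrl to Upf3b-KO differed between the tissues for 8 of the 9 genes, against 48.3% of all genes (edgeR interaction, Upf3b-KO against Ctrl in cerebellum minus the same in frontal cortex). Cell type markers also moved differently with genotype in the tissues, and their part was not tested. All 8 differences were negative, from -0.14 for Luc7l to -0.55 for Rbm3 on the log2 scale, and Clk4 was the exception. The calls of Clk2 and Luc7l were lost without cerebellum Upf3b-KO replicate 4 (adjusted p = 0.058, edgeR) and 2 (adjusted p = 0.054) respectively. Of 75 transcripts tested, 6 were called (13.3% of all): Clk2-201, Cirbp-202, Rbm3-202, Rbm3-203, Snrpb-201 and Snrnp70-216, none of them NMD type. The call of Clk2-201 was lost without cerebellum Upf3b-KO replicate 3 or 4 (adjusted p = 0.069 and 0.054, edgeR). A replicate block within genotype also ended the calls of Clk2-201, Cirbp-202, Rbm3-202 and Snrnp70-216 (adjusted p of 0.0521 to 0.0904, edgeR). For the NMD-type transcripts the SE of the difference was 0.26 or more, and the difference of Clk1-210, -0.66 (SE 0.26), was not called.

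Without the mutation, all 9 genes were higher in cerebellum than in frontal cortex, against 35.8% of all genes (edgeR). The fold ran from 1.15 for Luc7l and 1.21 for Snrnp70 to 1.5 for Clk1 and 1.83 for Rbm3. Of 28 classes tested in the Ctrl libraries, 2 differed in usage (3.53% of all classes), both of Snrnp70: its retained intron class held more of the gene in cerebellum (log2 0.35, adjusted p = 6.7e-05, diffSpliceDGE) and its coding class less (log2 -0.30, adjusted p = 0.00033). Retained intron transcripts of Snrnp70 were at 17.1 to 20.6 CPM in frontal cortex Ctrl and 31.7 to 33.9 CPM in cerebellum Ctrl.

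Per annotated length, as TPM (the share of all transcripts, per 1000000), Rbm3 was highest and Clk2 lowest in Ctrl. In frontal cortex Ctrl the order was Rbm3 (227 ± 12, SD, n = 4), Cirbp (186 ± 0.76), Rbm39 (151 ± 2.2), Snrpb (138 ± 3.2), Luc7l (49.96 ± 1.03), Clk4 (49.4 ± 2.9), Snrnp70 (47.9 ± 2.7), Clk1 (39.1 ± 0.79) and Clk2 (19.9 ± 0.80). Luc7l, Clk4 and Snrnp70 overlapped, and the others did not overlap with their neighbours. In cerebellum Ctrl the first 4 genes kept their order, from Rbm3 at 443 ± 3.5 TPM to Snrpb at 195 ± 8.0 TPM, and Clk4 (72.7 ± 6.2), Clk1 (64.2 ± 1.4), Snrnp70 (61.9 ± 3.5) and Luc7l (61.8 ± 2.1) overlapped with their neighbours. In cerebellum Upf3b-KO Rbm3 (206 ± 8.4, n = 3) and Rbm39 (202 ± 5.8) overlapped, and in frontal cortex Upf3b-KO Rbm39 (172 ± 2.2, n = 4) and Rbm3 (163 ± 6.8) did.

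Other genes of the same machinery were counted in the same way, against 28.2% of all genes higher and 25.6% lower in frontal cortex and 33.4% and 31.6% in cerebellum. Of 4 other U1 and Luc7-like genes, 1 rose and 3 fell in frontal cortex and 3 fell in cerebellum: the U1 protein gene Snrpc fell in both (log2 fold change -0.41, SE 0.051, and -0.57, SE 0.051), and so did Luc7l3. Of 7 other Sm core genes, 4 fell in frontal cortex, and 3 fell and 1 rose in cerebellum: Snrpd3 fell in both (-0.40, SE 0.029, and -0.50, SE 0.031), and Snrpn, an imprinted Sm gene, rose in cerebellum (0.28, SE 0.014). Of 8 tested genes for U2AF-like and other factors of the acceptor splice site, 1 rose and 2 fell in frontal cortex and 5 fell in cerebellum, U2af2 in both. Of 7 SR-related and Tra2 genes, 1 rose and 3 fell in frontal cortex, and 6 fell in cerebellum, Pnisr the most (-0.54, SE 0.031). Of 6 other SR kinases, 3 rose and 2 fell in frontal cortex and 1 rose and 2 fell in cerebellum. The NMD class of Tra2b, which is known for a poison exon, rose in usage in both tissues, from a mean of 6.43 to one of 12.2 CPM in frontal cortex (adjusted p = 0.0020, diffSpliceDGE) and from 7.71 to 14.4 CPM in cerebellum (adjusted p = 2.1e-05). It was the only one called of 16 NMD classes in these lists in frontal cortex (3.86% of all NMD classes), and Snrpe and U2af1 were called beside it among 18 in cerebellum (3.18% of all).

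By the course over the 15 deep libraries, the genes most like each member were given by Pearson's r of log2(CPM + 1), as a description that both the tissue and the genotype shape. Rbm3 and Cirbp resembled each other (r = 0.991). The likest gene was Khdrbs1 for Cirbp (0.994), Slc1a3, the astrocyte glutamate transporter, for Rbm3 (0.994), Cog2 for Clk1 (0.996), Kansl2 for Clk2 (0.949), Mtfr1 for Clk4 (0.978), Pld5 for Rbm39 (0.993), Sptan1 for Snrpb (0.979), Kmt5b for Snrnp70 (0.973) and Paxx for Luc7l (0.977).

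Near-identical copies were found for Rbm3 alone, 4 in number and at most at 0.426 CPM. Rbm3 shares 94 nt of exon sequence with the antisense gene Rbm3os (at most 0.349 CPM on average in a group) and Clk4 59 nt with Gm55882 on the same strand (at most 0.114 CPM). Since strand use in counting was not stated, such reads cannot be assigned with certainty.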

How the data were processed

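Expected counts per Ensembl transcript were made by the authors with STAR 2.5.2b (GRCm39) and RSEM and deposited without scaling for depth. They were matched by identifier to GENCODE release M39 (141102 of 142435), whose transcript sequences are shown and whose transcript types define the NMD and retained intron classes. The authors used Ensembl version 105, in which some types may differ. RSEM divides reads that transcripts share, so single transcripts are less certain than sums. Counts were rounded and tested in R 4.3.3 with edgeR 4.0.16 (TMM, filterByExpr with a minimum count of 10, quasi-likelihood test, diffSpliceDGE for usage), Benjamini-Hochberg adjusted over all features and called at 0.05. Genotypes were fitted within a tissue, interaction and tissue contrasts of level over the 15 deep libraries. CPM are scaled to the library total, while fold changes carry the TMM factor, which lowered Upf3b-KO against Ctrl genes by 0.076 (frontal cortex) and 0.050 (cerebellum) on the log2 scale. A count of 3 equals 0.0851 to 0.108 CPM in the deep libraries, which covers counting error only. DESeq2 1.42.0, limma 3.58.1, other filters and scales, a replicate block and left-out libraries were alternatives.

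On simulated counts, 88.1% of genes and 39.7% of transcripts changed 2-fold in frontal cortex were called, and 86.6% and 20.6% in cerebellum. Over all genes, the median squared difference between replicate libraries was 2.17 to 2.70 times that of counting noise and alike in all pairs, so none was taken as a duplicate, which does not show that they were separate animals. Named transcripts were each gene's main coding transcript, NMD and retained intron transcripts holding 5% of the gene in a group, and transcripts called in level or usage at 1 CPM or more in a group. Others (Rbm3-207, Rbm3-208, Cirbp-201, Clk4-204, Clk4-212, Clk4-214 and Snrnp70-204) were named after their values were seen, for their exons. The members and lists were chosen with earlier results of these data known.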

Additional observations from a re-analysis of the deposited data

Results flagged for a closer look

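Of 54 groups of 4 libraries tested for a single distant library, 1 stood out, where chance gives about 1 in 20. The gene total of Snrpb in frontal cortex Upf3b-KO replicate 3 was 62.8 CPM, against 67.3 to 67.7 CPM in the other 3 libraries.

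The change from Ctrl to Upf3b-KO differed between cerebellum and frontal cortex by the interaction test (edgeR, adjusted over all genes) in 8 genes. On the log2 scale, cerebellum minus frontal cortex, the difference was -0.23 for Clk1, -0.24 for Clk2, -0.19 for Cirbp, -0.55 for Rbm3, -0.26 for Rbm39, -0.38 for Snrpb, -0.19 for Snrnp70 and -0.14 for Luc7l, with adjusted p from 6.9e-12 (Rbm3) to 0.012 (Clk2). Rbm39 was higher in frontal cortex Upf3b-KO and lower in cerebellum Upf3b-KO.

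Among transcripts, the same test called Clk2-201 (-1.65), Cirbp-202 (-0.14), Rbm3-202 (-0.77), Rbm3-203 (-0.70), Snrpb-201 (-0.33) and Snrnp70-216 (-0.55).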

How the results depend on the processing

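Besides leaving out libraries, 765 values were computed with a changed setting: 705 kept their direction and their side of the threshold, 30 became weaker, 24 stronger, and 6 changed sign, none of them a called value. Where a sentence below gives no cause, the cause was not tested.

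Counts of member calls moved by over 1.5 times in these cases. limma's diffSplice called 6 NMD classes in frontal cortex (3 with edgeR), 7 in cerebellum (1), 7 classes between the tissues (2), and 10 and 9 transcripts in usage (1 and 1). Over all genes the same tool called 1117 classes against 198 in frontal cortex, 1552 against 220 in cerebellum and 2504 against 520 between tissues, and 1572 against 250 and 2335 against 402 transcripts. DESeq2 called 5 NMD-type transcripts higher in cerebellum (3), 7 transcripts higher (4) and 14 lower (9), and over all transcripts in frontal cortex 10823 against 6879. Library totals as the scale, added after seeing the data, called 5 genes higher in frontal cortex (3). With that scale, 66.9% of the called frontal cortex transcripts were higher, against 53.1%. With the shallow library kept, 2 transcripts were called higher in cerebellum (4) and 3 in the interaction (6), and over all transcripts 3924 against 10003 and 3102 against 7058, with 185 in usage against 402. Rbm39-225 (adjusted p = 0.0957, edgeR) and Luc7l-202 (0.265) were the transcripts no longer called higher in cerebellum.

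Same-numbered libraries did not deviate together, with correlations from -0.043 to 0.12 between genotypes and from -0.11 to 0.035 between tissues, so it is not known which libraries of the tissues share a mouse. With the replicate block, 2 NMD-type transcripts rose in frontal cortex (5, with Clk1-210 at an adjusted p of 0.08, Rbm39-225 at 0.0576 and Snrpb-202 at 0.0558 in edgeR), 5 transcripts rose (8), 2 fell (5) and 0 were called in usage (1), in cerebellum 2 rose (4), and 3 were called in the interaction blocked within genotype (6), where Clk2-201 (adjusted p = 0.0904), Cirbp-202 (0.0748), Rbm3-202 (0.0648) and Snrnp70-216 (0.0521, edgeR) lost their call and Rbm39-217 gained one (0.0411), while the same 8 genes were called. In cerebellum the block ended the calls of Rbm39-223 (log2 fold change 1.71, adjusted p = 0.0779, edgeR) and Luc7l-202 (adjusted p = 0.136, edgeR). In frontal cortex it ended the usage call of the Luc7l NMD class (adjusted p = 0.0592, diffSpliceDGE). Over all features the block left 4171 and 5130 transcripts and, in cerebellum, 138 classes.

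Leaving out each library in turn gave 1 to 2 NMD classes called in usage in frontal cortex and 1 to 2 in cerebellum, 3 to 5 transcripts lower in frontal cortex, and 1 to 3 and 0 to 2 transcripts called in usage. Uncalled values that changed sign so were Clk2-201 in cerebellum (-0.256 to 0.107), the Clk4 interaction (-0.037 to 0.0374), Rbm39-201 in frontal cortex (-0.0725 to 0.0169), the usage of the Snrnp70 NMD class (-0.369 to 0.0964 in frontal cortex, -0.0341 to 0.637 in cerebellum), Snrnp70-201 in cerebellum (-0.0197 to 0.0655) and Snrnp70-216 in frontal cortex (-0.0642 to 0.0182). Library totals turned Snrpb (0.0189), Clk1-204 (0.00824), Rbm39-201 (0.0399) and Snrnp70-216 (0.0508) in frontal cortex, no filter turned the Clk4 interaction (0.0187), and the shallow library turned Snrnp70-201 in cerebellum (-0.0358).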

Other observations

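The shallow cerebellum Upf3b-KO replicate 1 held 17 counts of Rbm39, 15 of Luc7l, 5 of Snrpb, 4 of Clk1, 3 of Rbm3, 2 of Snrnp70 and 1 each of Clk2, Clk4 and Cirbp, and was used for no value of the report.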
